A study of Arabidopsis thaliana with 12 samples.

Results

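Iron deficiency was examined within rosettes of Arabidopsis thaliana plants that overexpress IMA1 (IMA1 OE). The libraries were the 2 from IMA1 OE rosettes kept on full medium and the 2 from IMA1 OE rosettes moved to Fe-deficient medium, 4 of the 12 samples in the series. All 12 came from the Columbia-0 background. The IMA1 OE plants carry the IMA1 open reading frame behind the constitutive 35S promoter (35spro:IMA1 ORF, line #7-4), so the transgene does not follow the plant's own regulation of the gene, and it is represented by 1 line. The control plants carry 35spro:EYFP and had been kept on full medium, also as 2 rosette libraries (EYFP OE). Seedlings had grown for 10 days on full ES medium with 1.5% sucrose in continuous light, 25 to a plate, before transfer to full ES medium or to ES medium lacking Fe and holding 100 µM ferrozine, an Fe chelator. Whole rosettes were harvested 72 hours later. No Fe-deficient EYFP OE rosettes were analysed here, so the response described is that of the overexpression line alone.

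Of the 33607 genes listed, 18685 had a value of at least 1 in 2 or more of the 4 IMA1 OE rosette libraries and were tested. The values are the authors' normalized expression signal, which has no stated unit and keeps no read depth, so the precision that depth would give is unknown. The groups stand in separate tables that were each normalized on their own. They were brought to 1 scale through the EYFP OE rosette libraries, which both tables hold, and every change below crosses the tables after that correction. The columns of the Fe-deficient libraries are headed +Fe in their table and were assigned from the labels of the samples. All values of Fe-deficient rosettes rest on that assignment. The labels do not say whether replicates came from separate plates or plants, so p-values measure the spread between these libraries only.

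Iron is needed in leaves for photosynthesis, heme and Fe-S proteins, and free iron is harmful, so plants store the surplus in ferritin and in vacuoles. When iron runs short, transcription factors of the bHLH family and the short IMA peptides raise the genes of iron uptake and transport, and ferritin transcription is repressed. IMA peptides act upstream of the subgroup Ib bHLH factors and are themselves among the transcripts most strongly raised in Fe-deficient plants.

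With limma, 0 of the 18685 genes passed an adjusted p of 0.05 (0% called), and the smallest adjusted p was 0.0807. At an unadjusted p under 0.05, 275 genes (1.47%) differed, 85 of them higher (0.455%) and 190 lower (1.02%) in Fe-deficient rosettes. Every difference below therefore describes these libraries and did not pass the test across all genes. Both Fe-deficient values lay above both full-medium values for 2104 genes (11.3%) and below them for 1943 (10.4%), which are the shares to set beside the counts of list members. The same separation together with a log2 change of at least 1 was found for 14 genes above (0.0749%) and 30 below (0.161%). All log2 changes are on the log2(value + 1) scale, which understates changes of weakly expressed genes. Group means correlated at r = 0.994 across tested genes, and replicates at 0.977 on full and 0.978 on Fe-deficient medium, values over genes that do not vary independently. Group means differed by a median of 0.076 on the log2 scale in either direction, and replicates by 0.17 on full and 0.16 on Fe-deficient medium. Means of 2 libraries vary less than single libraries, so values for group means and for replicates are not directly comparable.

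**Figure D1:**
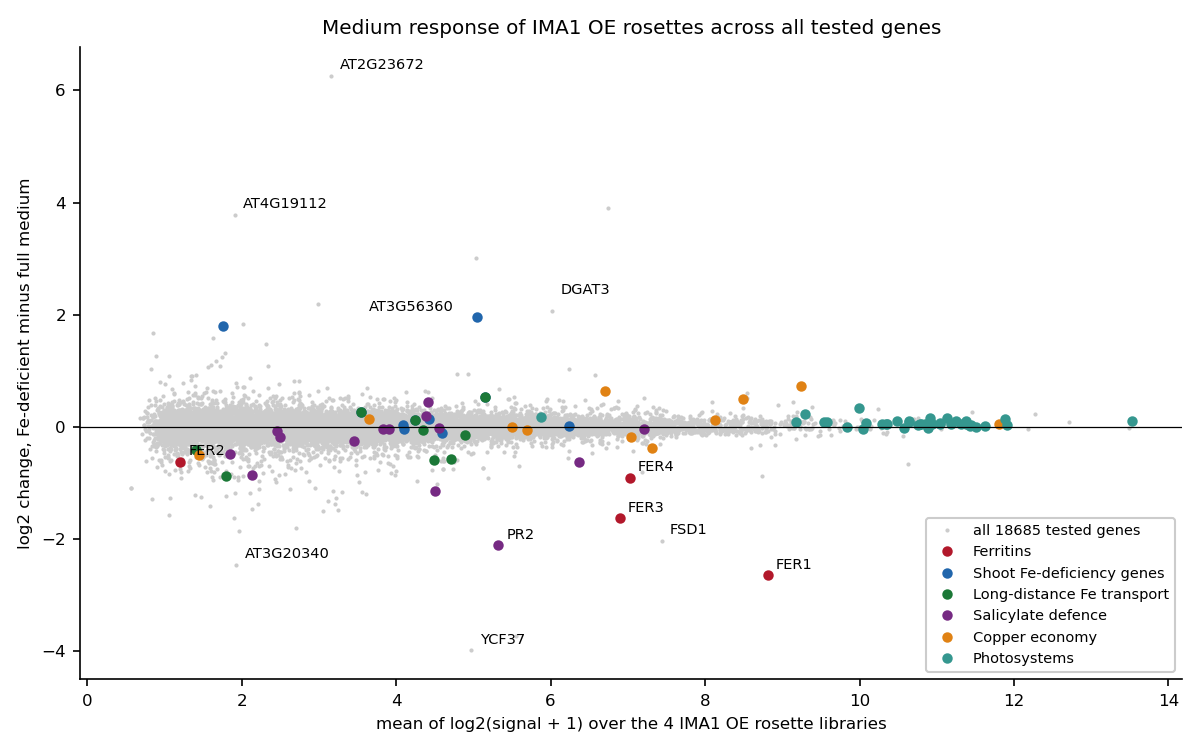
Log2 change in IMA1 OE rosettes (Fe-deficient minus full medium, vertical axis) against the mean of log2(signal + 1) over the 4 libraries (horizontal axis) for all 18685 tested genes in grey, with members of 6 gene lists in colour. The 4 ferritin genes lie between -0.62 and -2.65, while the photosystem genes at the right lie close to 0.

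The overexpressed gene and its construct were high under both media. The row for the IMA1 construct stood at 559.7 and 385.4 on full medium and at 455.0 and 381.0 on Fe-deficient medium as deposited, against 0.09 and 0.12 in EYFP OE rosettes. AT1G47400, the IMA1 locus, stood at 482.7 and 345.6 on full medium and at 419.5 and 359.3 on Fe-deficient medium, with 9.01 and 2.02 in EYFP OE. The groups overlapped, and the log2 change was -0.07 (SE 0.21, limma unadjusted p 0.744). Transgene and native transcripts cannot be told apart in this gene row. AT1G47395 and AT2G30766, listed beside AT1G47400 and described by RefSeq as uncharacterized proteins, stayed below the filter. AT1G47395 read 0.20 in both full-medium libraries and 0.81 and 2.64 on Fe-deficient medium, where EYFP OE rosettes read 11.3 and 4.63. AT2G30766 read 0.03 and 0.16, then 0.13 and 2.63, with 45.4 and 9.03 in EYFP OE. Fe-deficient IMA1 OE rosettes thus stood below both EYFP OE libraries at both loci, although the EYFP OE plants had iron.

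The ferritin genes showed the most uniform difference. Ferritin assembles into hollow shells that hold iron, mainly in plastids, and several of its genes are switched on by iron. All 4 members were tested and all 4 were lower in both Fe-deficient libraries than in either full-medium library, against 10.4% of all tested genes, with a median log2 change of -1.27 beside 0.0043 over all genes. Each of the 4 had an unadjusted limma p under 0.05, where 1.02% of tested genes did in this direction. FER2 passed the filter only through its full-medium values, so its place in these counts was partly fixed by the filter. The sequences near their starts are shown because they hold 2 motifs known from plant iron biology or common among plant promoters. The first is a 9-letter stretch, CACGAGGCC, of the iron-dependent regulatory sequence described for FER1. The second is the G-box CACGTG. Both are written in capitals, 5′ to 3′ on the gene's strand, from the RefSeq assembly TAIR10.1:

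FER1, chr5:229765-229794, minus strand: ttggatgtagCACGAGGCCgccacacgccc

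FER3, chr3:20816036-20816185, minus strand: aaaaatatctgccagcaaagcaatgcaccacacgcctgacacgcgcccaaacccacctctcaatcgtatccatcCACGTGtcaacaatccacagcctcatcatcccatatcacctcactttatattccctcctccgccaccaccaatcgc

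FER4, chr2:16833295-16833444, minus strand: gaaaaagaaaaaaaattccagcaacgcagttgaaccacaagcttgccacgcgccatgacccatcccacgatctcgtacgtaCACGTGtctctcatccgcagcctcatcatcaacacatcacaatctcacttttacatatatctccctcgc

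The FER1 match ends 182 bases before the first coding base and lies inside the annotated transcript. On either strand, the 9 letters occur in the 300 bases before the coding start of 12 of 27443 protein-coding genes (0.0437%). The G-box, a palindrome that reads alike on both strands, begins 76 bases before the annotated start of FER3 and 69 bases before that of FER4. It occurs in the 300 bases before the start of 1945 of 27443 genes (7.09%). The G-box was not in that window of FER1 or FER2, and the 9 letters were not in the window of FER2, FER3 or FER4. A match describes the letters and is not evidence of a bound site.

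FER1 (AT5G01600, chr5:227953-230051, minus strand) was the most strongly expressed ferritin. It stood at 1265 and 994.5 on full medium, mean 1130 ± 191.5 (SD, n = 2), and at 252.6 and 126 on Fe-deficient medium, mean 189 ± 89.5 (SD, n = 2). The groups lay far apart, with a 5.97-fold difference in means and a log2 change of -2.65 (SE 0.36, limma unadjusted p 0.000919, adjusted p 1). EYFP OE rosettes on full medium read 59.6 and 281.7, a range that holds both Fe-deficient IMA1 OE values. FER1 overlaps AT5G01595 on the opposite strand, which read at most 0.426 in these 4 libraries.

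FER3 (AT3G56090, chr3:20813904-20816035) stood at 202.4 and 215.1 on full medium and at 82.3 and 53.8 on Fe-deficient medium. The means differed 3.07-fold without overlap, and the log2 change was -1.63 (SE 0.22, limma unadjusted p 0.000911). FER4 (AT2G40300, chr2:16831109-16833294), whose protein is found in mitochondria as well as plastids, stood at 175.3 and 178.7, then at 113.6 and 77.8. Its log2 change was -0.91 (SE 0.20). FER2 (AT3G11050, chr3:3463477-3465506), best known as the seed ferritin, was near the filter at 1.45 and 2.3, then 0.91 and 0.79, with a log2 change of -0.62 (SE 0.21). In EYFP OE rosettes FER3 read 71.2 and 87.6, FER4 47.2 and 93.3, and FER2 0.60 and 0.96. Both Fe-deficient FER2 values lay within the EYFP OE range, as did 1 of the 2 for FER3 and for FER4, with the other FER3 value below it and the other FER4 value above it.

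**Figure D2:**
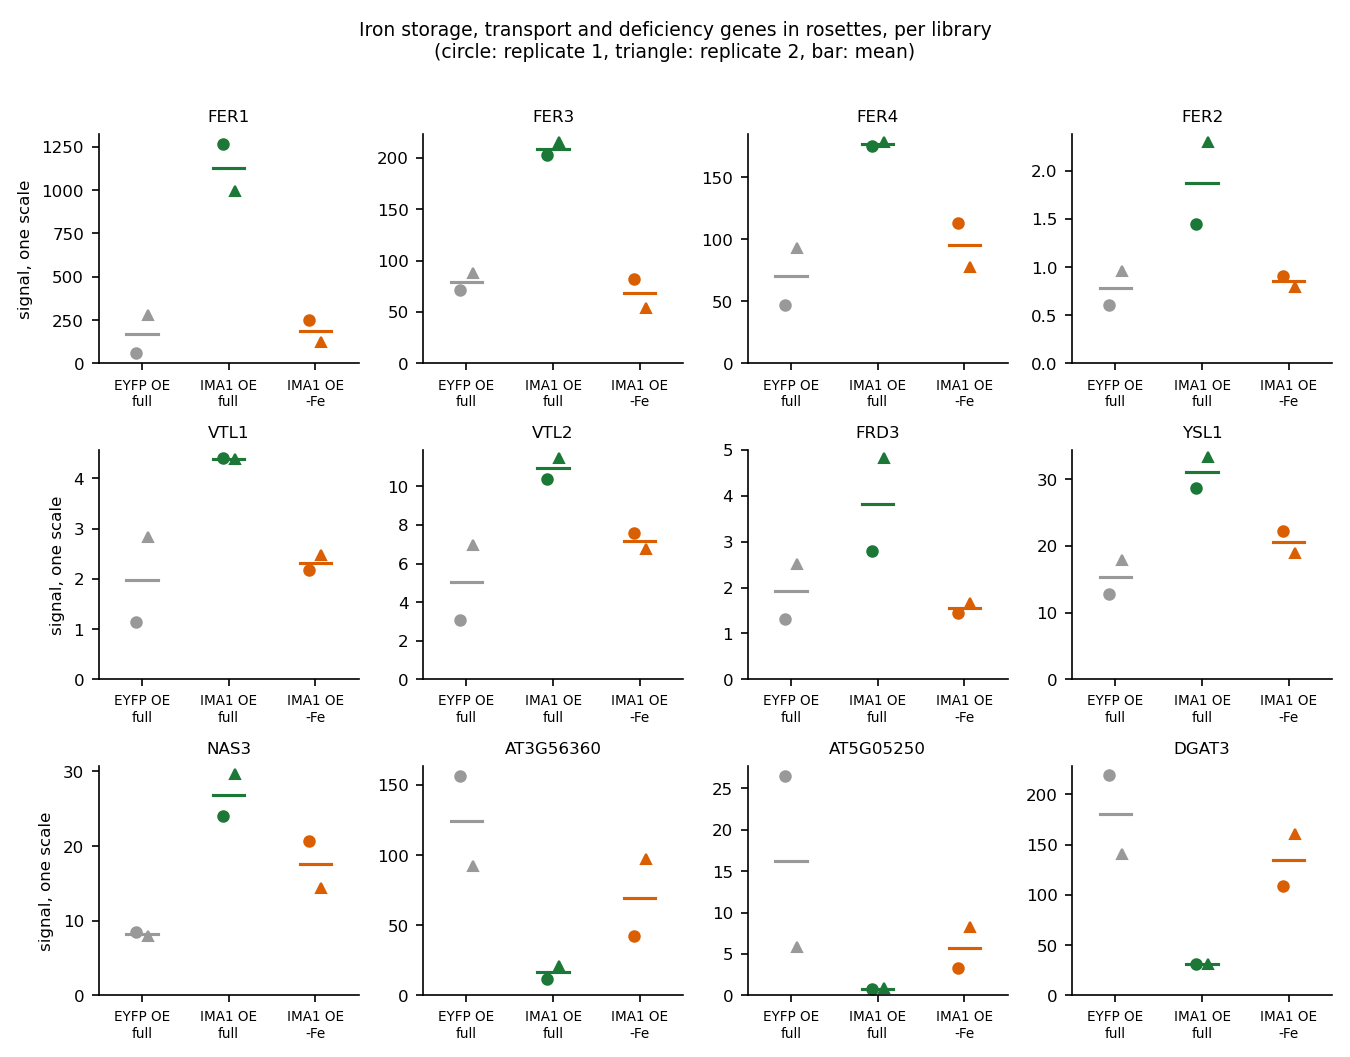
Signal per library, on the scale of the full-medium table, for 12 genes of iron storage, transport and deficiency in EYFP OE rosettes on full medium, IMA1 OE rosettes on full medium and IMA1 OE rosettes on Fe-deficient medium; points are the 2 replicates, bars their mean, and each vertical axis starts at 0. The 9 storage and transport genes are lower, and AT3G56360, AT5G05250 and DGAT3 higher, in the Fe-deficient than in the full-medium IMA1 OE rosettes.

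Of the 3 tested VTL genes, 2 were lower and 1 overlapped. VTL1 (AT1G21140) and VTL2 (AT1G76800) encode vacuolar iron transporter-like proteins, which are thought to move iron into the vacuole. VTL1 stood at 4.41 and 4.38 on full medium and at 2.18 and 2.47 on Fe-deficient medium, with a log2 change of -0.70 (SE 0.13, limma unadjusted p 0.00365). VTL2 stood at 10.4 and 11.5, then at 7.59 and 6.75, with a log2 change of -0.55 (SE 0.12, unadjusted p 0.00698). Neither gene's groups overlapped. VTL5 (AT3G25190) stood at 11.2 and 6.37, then at 8.87 and 5.99, with overlapping groups. NRAMP3, which releases iron from the vacuole, was also lower, at 5.58 and 5.28 against 3.04 and 4.64 (log2 change -0.43, SE 0.20). Of the 13 tested members of the list of vacuolar and plastid iron transport, 3 were lower, 2 were higher and 8 overlapped, with a median log2 change of 0.0014. PIC1 and FRO7, which serve iron supply to the plastid, were among those whose groups overlapped.

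Several genes that move iron chelates through the vasculature were lower, and others overlapped. In the list of long-distance transport, 4 of 9 tested members were lower in both Fe-deficient libraries, 1 was higher and 4 overlapped, with a median of -0.15. FRD3, a citrate exporter of the xylem, stood at 2.80 and 4.83 on full medium and at 1.44 and 1.67 on Fe-deficient medium, a log2 change of -0.88 (SE 0.24, limma unadjusted p 0.0166). YSL1, a transporter of metal-nicotianamine complexes in leaf veins, stood at 28.7 and 33.4, then at 22.2 and 19.0 (log2 change -0.57, SE 0.14). NAS3, a nicotianamine synthase, stood at 24.0 and 29.7, then at 20.7 and 14.4 (log2 change -0.60, SE 0.21). Each of these 3 had an unadjusted p under 0.05. YSL2 was also lower, at 1.4 and 2.87 against 1.26 and 1.35, with a log2 change of -0.40. NAS4, a nicotianamine synthase that is raised under iron deficiency, went the other way, at 8.99 and 10.3 on full medium and at 11.1 and 12.5 on Fe-deficient medium (log2 change 0.27, SE 0.13, unadjusted p 0.0921). OPT3, which carries iron in the phloem, stood at 23.9 and 33.6 and then at 32.8 and 52.8, so its groups overlapped.

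Of the list of genes that respond to iron deficiency in shoots, 3 of 10 tested members were higher in both Fe-deficient libraries. Of the rest, 1 was lower and 6 overlapped, and the list's median was 0.13. Like the other lists, it was drawn up with earlier results of these data known, so the count is a description and not independent support. The 2 large differences were in AT3G56360 and AT5G05250, both uncharacterized proteins in RefSeq. The other higher member was NAS4, already counted in the list of long-distance transport, as were OPT3 and ZIF1, which overlapped. AT3G56360 stood at 11.7 and 21.0 on full medium and at 42.2 and 97.1 on Fe-deficient medium, 4.26-fold higher in the mean, with a log2 change of 1.96 (SE 0.47, limma unadjusted p 0.00963). AT5G05250 stood at 0.77 and 0.85, then at 3.29 and 8.20, with a log2 change of 1.8 (SE 0.38, unadjusted p 0.00598). It passed the filter only through its Fe-deficient values, so its place in the count of higher members was partly fixed by the filter. EYFP OE rosettes on full medium read 156.5 and 92.4 for AT3G56360 and 26.5 and 5.88 for AT5G05250. Both genes were therefore lowest in IMA1 OE rosettes with iron. DGAT3 (AT1G48300), a diacylglycerol acyltransferase outside the lists, behaved alike: it stood at 30.7 in both full-medium libraries, at 108.4 and 160.3 on Fe-deficient medium, and at 219.1 and 141 in EYFP OE. Its log2 change was 2.07 (SE 0.21, limma unadjusted p 0.000222, adjusted p 0.735).

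The subgroup Ib bHLH genes were near the floor, and most other regulators overlapped. All 4 subgroup Ib bHLH genes were below the filter: their summed signal was 0.16 and 0.60 on full medium, 1.33 and 0.80 on Fe-deficient medium, and 5.91 and 0.34 in EYFP OE rosettes. BHLH100 read 0.02 and 0.10, then 0.53 and 0.24, and BHLH39 0.02 and 0.15, then 0.28 and 0.15. BHLH101 read 0.10 in both full-medium libraries, then 0.16 and 0.22, and BHLH38 0.02 and 0.25, then 0.35 and 0.18. These values lie near the floor of the tables, where low expression and no reads look the same. Of 13 other regulators, 11 were tested. BTS, an E3 ligase that restrains the response, stood at 18.6 and 16.9 and then at 19.2 and 20.0 (log2 change 0.14), and FIT, the master regulator of root iron uptake, at 1.41 and 1.86 and then at 1.14 and 1.36 (log2 change -0.23). The other 9 overlapped, and the list's median was 0.05.

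**Figure D3:**
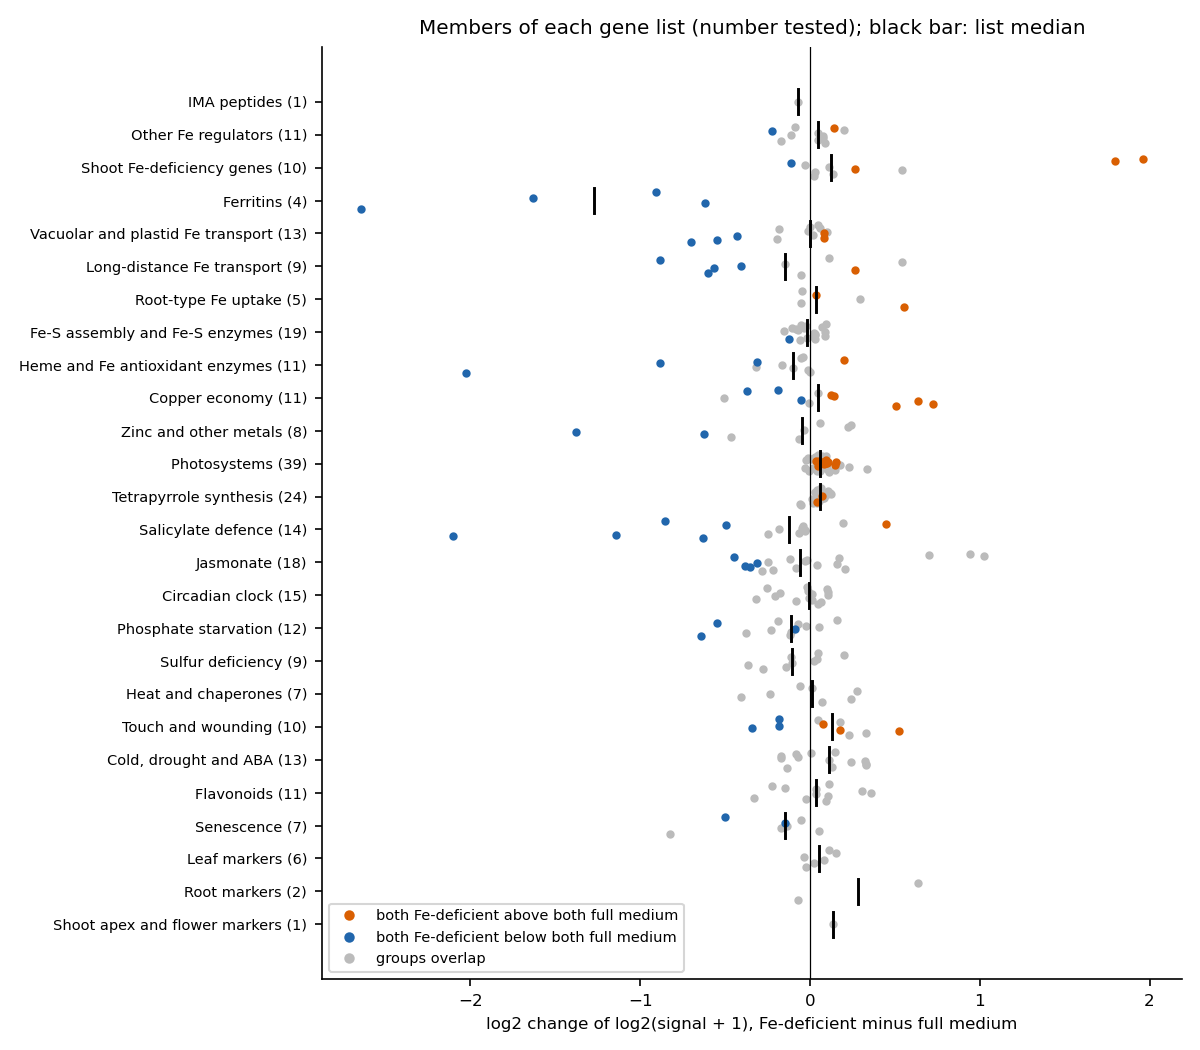
Log2 change (Fe-deficient minus full medium, horizontal axis) of each tested member of the gene lists in IMA1 OE rosettes; the number tested is in brackets and the black bar is the list median. Orange and blue points have both Fe-deficient libraries above or below both full-medium libraries, and grey points overlap. The ferritins are the only list whose tested members all lie below without overlap.

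Superoxide dismutases, which remove superoxide with iron or with copper and zinc, were lower for FSD1, higher for CSD1 and CSD2, and overlapping for the other 3 on the lists. FSD1, an iron superoxide dismutase, stood at 178.9 and 681 on full medium and at 56.6 and 127.2 on Fe-deficient medium, with 394.3 and 672 in EYFP OE. The groups did not overlap, but the full-medium replicates differed widely, and the log2 change was -2.03 (SE 0.73, limma unadjusted p 0.0415). The other iron enzymes, FSD2 at 44.0 and 39.6 and then 44.5 and 39.0, and FSD3 at 45.8 and 49.2 and then 51.4 and 43.1, overlapped. CSD2, the copper/zinc enzyme of plastids, stood at 603 and 368.1 and then at 757.6 and 802.4, with a log2 change of 0.73 (SE 0.27, unadjusted p 0.043). Its copper chaperone CCS stood at 110.5 and 61.7, then at 124.8 and 133.6 (log2 change 0.64, SE 0.29). CSD1, the cytosolic copper/zinc enzyme, stood at 414.9 and 219.6, then at 432.4 and 424.9 (log2 change 0.50, SE 0.32). CSD3 overlapped, at 46.5 and 42.0 and then 45.4 and 42.6. Without full-medium replicate 2 the log2 changes were 0.05 for CSD1, 0.22 for CCS, 0.37 for CSD2 and -1.07 for FSD1, and without full-medium replicate 1 they were 0.96, 1.05, 1.08 and -2.99. In EYFP OE rosettes CSD2 read 171.4 and 212, CCS 38.8 and 36.1 and CSD1 127.9 and 124.8, so these 3 genes stood above EYFP OE in every IMA1 OE library. Of the 11 copper genes, all tested, 5 were higher, 3 were lower and 3 overlapped, with a median of 0.05. Among the lower ones, the copper chaperone CCH read 152.7 and 213.2 and then 133.4 and 146.

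APX1, the cytosolic heme enzyme ascorbate peroxidase, stood at 647.6 and 516 on full medium and at 361.1 and 272.2 on Fe-deficient medium, against 313.1 and 310.4 in EYFP OE. Its log2 change was -0.88 (SE 0.21, limma unadjusted p 0.00919). The stromal and mitochondrial ascorbate peroxidase SAPX read 96.6 and 129, then 89.1 and 90.6 (log2 change -0.31). Of 11 tested heme and iron antioxidant genes 3 were lower, 1 was higher and 7 overlapped, with a median of -0.10. In the list of Fe-S cluster assembly and Fe-S enzymes, all 19 members were tested, 18 overlapped and SUFB was lower, at 127.1 and 139.6 against 126.9 and 118 (log2 change -0.12). Among zinc and other metal transporters, 2 of 8 tested members were lower and 6 overlapped. IRT3, a zinc and iron transporter, stood at 7.34 and 25.5, then at 3.84 and 5.78 (log2 change -1.38, SE 0.57, unadjusted p 0.0632), and ZIP5 at 2.54 and 4.85, then at 1.94 and 1.98.

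Photosynthesis genes differed little. Of 39 tested nuclear photosystem and antenna genes, 11 were higher in both Fe-deficient libraries and 0 lower, a share of higher genes to set beside 11.3% of all tested genes. Their median log2 change was 0.06, and their changes ran from -0.03 to 0.33. PSAG, a photosystem I subunit, stood at 1780 and 1871 on full medium and at 2088 and 1972 on Fe-deficient medium. Before correction, EYFP OE rosette values of the same gene differed between the tables by a log2 ratio of up to 0.136. That largest ratio of a single gene exceeds the median change of this list. Over 18047 genes the ratio had a median of -0.0198 and an SD of 0.00868 and 0.00873 in the 2 replicates, which is smaller than that change. Whether the values of the most abundant genes are partly set by rank was not tested. In chlorophyll and heme synthesis 2 of 24 tested genes were higher, 0 lower and 22 overlapped, with a median of 0.06.

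Defence genes of the salicylate pathway were among the lower ones. PR2 (AT3G57260), a secreted glucanase, stood at 106 and 63.2 on full medium and at 12.9 and 25.7 on Fe-deficient medium, 4.39-fold lower in the mean, with a log2 change of -2.11 (SE 0.40, limma unadjusted p 0.00364). PR5, a thaumatin-like protein, stood at 35.7 and 29.7, then at 11.3 and 17.9 (log2 change -1.14, SE 0.24). PR1, the usual marker of the pathway, stood at 112.5 and 92.3, then at 68.8 and 62.4 (log2 change -0.63, SE 0.14). All 3 had an unadjusted p under 0.05. EYFP OE rosettes read 10.3 and 12.7 for PR2, 6.78 and 10.1 for PR5 and 2.81 and 21.0 for PR1, below every IMA1 OE library on full medium. PBS3, an enzyme of salicylate synthesis, was lower at 3.45 and 6.80 against 1.66 and 2.99 (log2 change -0.85). SARD1, a transcription factor that promotes salicylate synthesis, was higher at 17.5 and 17.1 against 26.9 and 21.4, with a log2 change of 0.45 (SE 0.14). Of 14 tested members, 5 were lower, 1 was higher and 8 overlapped, with a median of -0.12, and EDS1, PAD4 and ICS1 were among the overlapping ones.

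**Figure D4:**
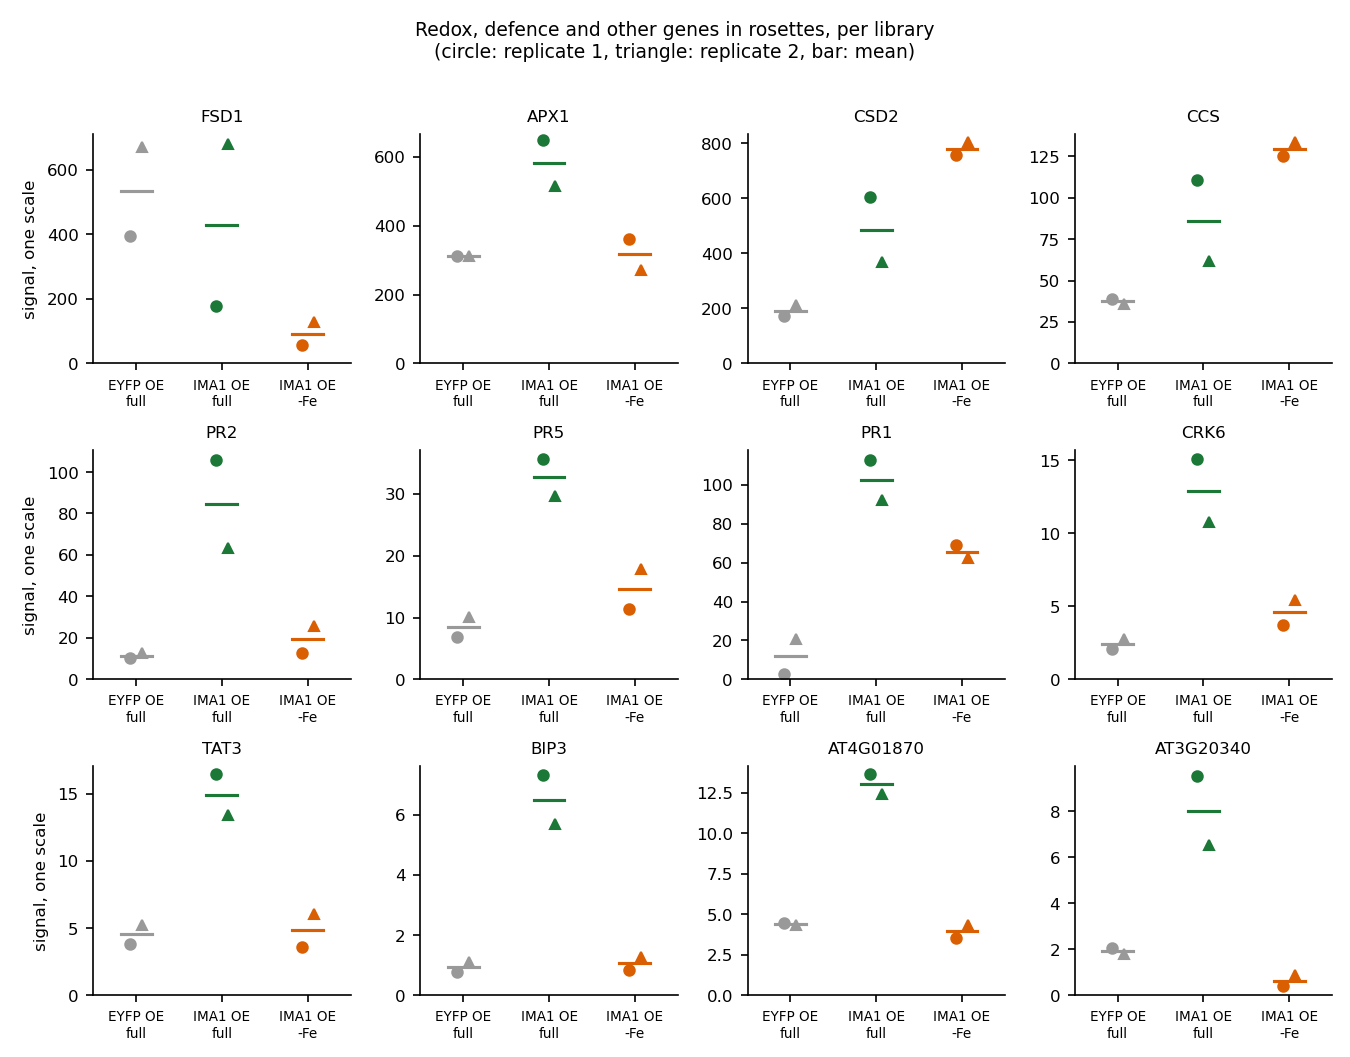
Signal per library, on the scale of the full-medium table, for 12 redox, defence and other genes in EYFP OE rosettes on full medium, IMA1 OE rosettes on full medium and IMA1 OE rosettes on Fe-deficient medium; points are the 2 replicates, bars their mean, and each vertical axis starts at 0. CSD2 and CCS are higher and the other 10 genes lower in both Fe-deficient libraries, and the 2 full-medium values of FSD1 lie far apart.

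Genes outside the lists were named by unadjusted p among those with a log2 change of at least 1 and no overlap, and none passed the adjusted threshold. AT4G01870, a tolB-like protein in RefSeq, stood at 13.7 and 12.4 on full medium and at 3.56 and 4.35 on Fe-deficient medium (log2 change -1.51, SE 0.14). BIP3, a chaperone of the endoplasmic reticulum induced when proteins misfold, stood at 7.30 and 5.67, then at 0.84 and 1.29 (log2 change -1.86, SE 0.19). AT3G20340 stood at 9.54 and 6.53, then at 0.40 and 0.89 (log2 change -2.46, SE 0.25), the largest difference among these 3. This gene passed the filter only through its full-medium values. TAT3, a tyrosine aminotransferase induced by jasmonate, stood at 16.4 and 13.4, then at 3.62 and 6.02 (log2 change -1.48). CRK6, a cysteine-rich receptor-like kinase, stood at 15.1 and 10.8, then at 3.73 and 5.44 (log2 change -1.32). AT3G27630, described as similar to a cyclin-dependent kinase inhibitor, stood at 4.17 and 4.51, then at 1.004 and 1.58 (log2 change -1.23). The other lower genes of the rule were AT1G21520, AT2G18193, AT1G57590 and AT2G07684, with log2 changes from -1.03 to -1.62. Beside the loci in the next paragraph, the higher ones of the rule were HYR1, AT3G51238, AT4G20362, AT5G59385, ATCG00200 and the precursor of MIR164a, with log2 changes from 1.03 to 1.83 and values of at most 9.55.

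Several of the largest values belong to loci that overlap another gene or read near 0 in 1 group, and the strand setting of the authors' counting is not given in the sources used here. AT4G19112 read 0.01 in both full-medium libraries and 14.9 and 11.2 on Fe-deficient medium, with a log2 change of 3.79 and the smallest adjusted p of the comparison (limma, 0.0807). Its neighbour in number, AT4G19110, read 27.6 and 24.2 and then 14.8 and 11.02, and in EYFP OE the pair read 16.5 and 9.40 against 16.3 and 9.29. AT2G23672, an RNA gene on the opposite strand of YCF37 (AT2G23670), read 0.02 in both full-medium libraries and 106.5 and 56.0 on Fe-deficient medium, while YCF37 read 110.5 and 138.9 and then 0.02 and 60.0, switching between near 0 and a high value within the replicate pair. AT1G71530 and AT4G31248, annotated on different chromosomes, held nearly the same values in every rosette library, 1.25 and 1.06 against 1.23 and 1.08 on full medium and 0.01 on Fe-deficient medium. AT5G01542, an RNA gene, read 0.01 in both full-medium libraries, then 2.14 and 2.31. AT4G19112, AT2G23672 and AT5G01542 passed the filter only through their Fe-deficient values, and AT1G71530 and AT4G31248 only through their full-medium values. The values of the 7 loci in this paragraph are uncertain as measures of separate transcripts.

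Markers were read beside these results. The 6 leaf markers summed to 31543 and 27507 on full medium and to 34252 and 26152 on Fe-deficient medium, with all 6 members overlapping. Of 11 root markers, 2 passed the filter: PYK10 read 186.9 and 84.2, then 153.6 and 92.7, and NRT2.1 overlapped too, while the other 9 read at most 0.71 in any of the 4 libraries. Of the senescence list 2 of 7 tested genes were lower, among them WRKY53 at 16.7 and 13.5 against 10.8 and 9.85, and SAG12 was at the floor of 0.01 in every library. The shoot apex gene STM read 4.29 to 5.81 in all 4 libraries. In whole rosettes, fewer cells of a type and less RNA per cell cannot be told apart. Their part in the results was not tested.

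The remaining lists are given by their counts. The 15 clock genes and the 13 tested genes of cold, drought and abscisic acid all overlapped, as did the 11 flavonoid genes, the 9 sulfur genes and the 7 heat genes. Replicates lay apart within both groups: summed clock signal read 348.2 and 540 on full and 362.5 and 494.8 on Fe-deficient medium. The cold, drought and abscisic acid sum read 661.9 and 265.4, then 713.2 and 288.7. EYFP OE rosettes read 298.2 and 512.3 for the clock sum and 850.7 and 251.9 for the other. Replicate 2 thus lay on the same side of replicate 1 in each of these groups. The overlap counts do not take replicate number into account, and no label ties a replicate number to a batch. Such a spread makes overlap likely with any modest change, so these counts do not show a lack of response. Of 18 tested jasmonate genes, 4 were lower and 0 higher, with CORI3 at 31.9 and 23.9 against 20.1 and 19.9 (log2 change -0.45). The PDF1.2 defensins of that list differed widely between the full-medium replicates, with PDF1.2A at 14.9 and 173.8 and then 67.5 and 167.4. Of 12 tested phosphate starvation genes, 3 were lower and 0 higher, with PAP17, an acid phosphatase, at 18.9 and 18.23 against 14.9 and 10.3 (log2 change -0.55) and SPX1 at 15.5 and 19.9 against 13.9 and 8.50 (log2 change -0.64). Of 10 touch and wounding genes 3 were higher and 3 lower; TCH4 read 304.4 and 313.8, then 553.9 and 356.

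Roots of the same line answered the same transfer differently, and here the difference itself was tested. The interaction term of a limma model over the 8 IMA1 OE libraries passed an adjusted p of 0.05 for 29 of 21117 genes (0.137%), beside 764 at an unadjusted p below 0.05. Of the 29, 23 (0.109%) had a more negative response in rosettes than in roots and 6 (0.0284%) a more positive one. All 23 were higher in both Fe-deficient root libraries than in both full-medium ones, 13 of the 29 read under 1 in all 4 rosette libraries, and 12 were members of the lists. A gene entered this test through either tissue, and where values in 1 tissue are near 0 the size of the difference depends on the pseudocount. With the filter required in both tissues, 12 genes passed. In roots alone, 62 of 19702 genes (0.315%) passed.

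**Figure D5:**
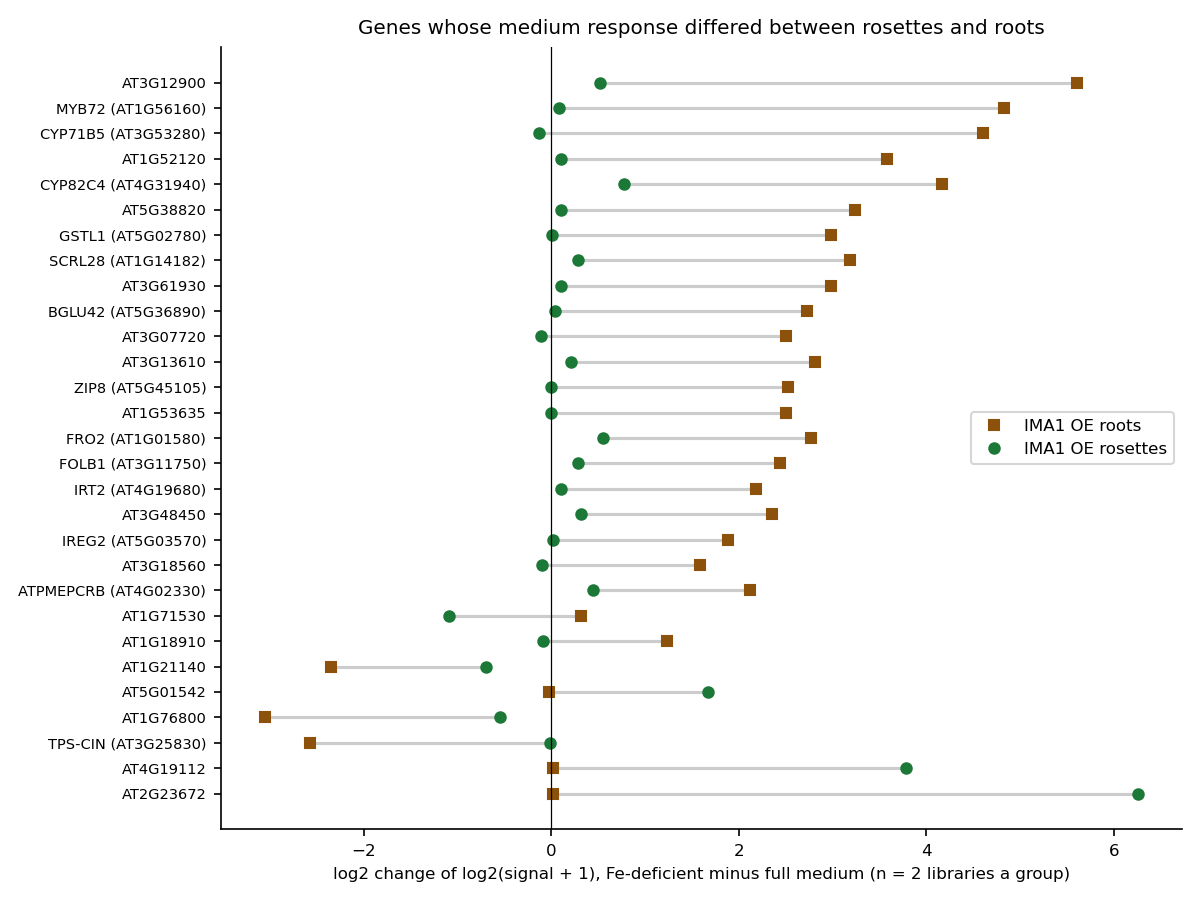
Log2 change (Fe-deficient minus full medium, horizontal axis) in IMA1 OE roots (squares) and IMA1 OE rosettes (circles), each from 2 libraries a group, for the 29 genes whose responses differed between the tissues by the limma interaction test. In the upper 23 genes the root square lies to the right of the rosette circle, and most circles sit near 0.

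In the list of root-type iron uptake, 5 of 10 genes passed the filter in rosettes, where FRO2 and BGLU42 were higher and 3 overlapped. FRO2 passed there only through its Fe-deficient values. The genes below were named from the tissue test. CYP82C4, a cytochrome P450 that passed the filter through its root values only and that takes part in coumarin synthesis, read 48.5 and 41.2 on full medium and 880.8 and 758.5 on Fe-deficient medium in roots, against 0.21 and 0.25 and then 1.54 and 0.74 in rosettes (difference -3.39, SE 0.26, limma adjusted p 0.00682). This call was lost without rosette full-medium replicate 2, root full-medium replicate 2 or root Fe-deficient replicate 1 (adjusted p up to 0.0692), and with a pseudocount of 0.1 (adjusted p 0.311). FRO2, the ferric reductase of the root surface, read 99.8 and 84.3 and then 690 and 581.7 in roots, against 0.43 and 0.86 and then 1.55 and 1.25 in rosettes. Its difference was -2.22 (SE 0.23, adjusted p 0.0249), and it passed in 1 of the 8 fits that left out a library (adjusted p up to 0.202) and not with a pseudocount of 0.1 (adjusted p 0.622). The rosette values of FRO2 did not overlap either, with a rosette log2 change of 0.55. BGLU42, a glucosidase of the coumarin pathway, read 15.2 and 14.7 and then 15.5 and 15.3 in rosettes, while in roots it read 16.2 and 17.0 and then 117.8 and 113.8 (difference -2.69, SE 0.10, adjusted p 0.000282). BGLU42 thus had similar levels in both tissues on full medium and parted on Fe-deficient medium.

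For the vacuolar genes the tissues moved the same way to different extents. VTL1 read 84.3 and 85.7 and then 15.9 and 15.9 in roots, a root log2 change of -2.35, so that the rosette response was less negative by 1.65 (SE 0.12, limma adjusted p 0.00539). VTL2 read 33.5 and 32.8 and then 2.61 and 3.64 in roots, a root log2 change of -3.06, and the rosette response was less negative by 2.51 (SE 0.19, adjusted p 0.00682). Both calls were lost without either root full-medium library, and that of VTL1 also without root Fe-deficient replicate 1, with adjusted p up to 0.0629 for VTL1 and 0.0665 for VTL2. The ferritins did not pass this test. FER1 fell in roots too, from 257.8 and 305.9 to 88.3 and 82.1 (root log2 change -1.71, limma adjusted p 0.0111), and the rosette response was lower by 0.93 with an SE of 0.43 (interaction adjusted p 1). FER3 read 84.5 and 87.4 and then 69.0 and 58.9 in roots, and the difference between the tissues was -1.21 (SE 0.27, interaction adjusted p 0.488).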

How the data were processed

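Each table holds 33611 rows: 33607 genes and 4 construct rows. The authors deposited 1 normalized signal per gene and library and named no unit for it. They also deposited, per the file headers, a Z-test p-value and a log2 fold change against EYFP OE, which were not used. The submitters' processing notes name TAIR10, bcl2fastq 1.8.4, Trimmomatic 0.35, Bowtie2 2.0.6, edgeR 3.12.1 and limma 3.26.9, with no roles. 0 per-sample columns were left unassigned.

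Fe-deficient values were divided by the median ratio of the EYFP OE rosette values, Fe-deficient over full-medium table (log2 ratio -0.0198, SD 0.00868 and 0.00873 over 18047 genes). EYFP OE values are means over the tables. Log2(value + 1) of genes at 1 or more in 2 or more libraries was fitted with limma 3.58.1 in R 4.3.3 (lmFit, eBayes with trend, 2 residual degrees of freedom), two-sided, with Benjamini-Hochberg adjustment and a threshold of 0.05, and tested on simulated data. The tissue difference was an interaction term.

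The 27 lists hold 342 genes, all matched to RefSeq. Named genes are all members of the IMA, bHLH Ib and ferritin lists, up to 4 others per list with the largest change, 12 genes in each direction by unadjusted p (list members included), the largest tissue differences, and partners and further list members chosen after their values were seen; log2 changes are given for genes whose groups do not overlap and for AT1G47400. Members and lists were chosen with earlier results of these data known. Alternatives changed the pseudocount, filter, trend, table correction, normalisation, replicate block and libraries.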

Additional observations from a re-analysis of the deposited data

Results flagged for a closer look

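The medium response of 18 named genes differed between IMA1 OE rosettes and IMA1 OE roots by the limma interaction test at an adjusted p under 0.05. The values are rosette minus root log2 changes, each from 2 libraries a group. More negative in rosettes were AT3G12900, an oxygenase of the 2-oxoglutarate family (-5.08), MYB72, a root transcription factor (-4.75), CYP71B5 (-4.74), CYP82C4 (-3.39), BGLU42 (-2.69), the kelch-repeat gene AT3G07720 (-2.62), AT3G13610 (-2.60), FRO2 (-2.22), the root iron transporter IRT2 (-2.08), IREG2 (-1.87), AT1G71530 (-1.41) and AT1G18910 (-1.32). CYP71B5 read 17.3 and 16.7 and then 15.1 and 15.7 in rosettes, against 0.34 and 0.35 and then 29.9 and 33.4 in roots. More positive in rosettes were VTL1 (AT1G21140, 1.65), AT5G01542 (1.70), VTL2 (AT1G76800, 2.51), TPS-CIN, a terpene synthase near 0 in rosettes (2.56), AT4G19112 (3.77) and AT2G23672 (6.24). With 1 library left out in turn, 8 of the 18 passed in every one of the 8 fits: AT3G12900, MYB72, CYP71B5, BGLU42, AT3G07720, TPS-CIN, AT4G19112 and AT2G23672. With the filter required in both tissues, 8 of the 18 were not tested (AT3G12900, MYB72, CYP82C4, AT3G13610, IRT2, IREG2, TPS-CIN and AT5G01542) because AT5G01542 passed the filter in rosettes only and the others in roots only. Of the 10 that were tested 9 passed, and AT1G71530 did not. With a pseudocount of 0.1, 7 lost the call (FRO2, AT1G18910, AT3G13610, TPS-CIN, IRT2, CYP82C4 and IREG2). AT1G18910, AT1G71530 and AT5G01542 passed in none of the 8 fits, and FRO2, AT3G13610 and IRT2 in 1 each. AT4G19112, AT2G23672, AT1G71530 and AT5G01542 are uncertain as measures of separate transcripts, and so are their tissue differences.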

How the results depend on the processing

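Depth is unknown, and with 2 libraries a group most alternatives made few or no calls. The count of genes called between media in IMA1 OE rosettes, 0, was 1 with a pseudocount of 0.1 and 1 with the EYFP OE rosettes in the fit, AT2G23672 in both. It was 1035 with no filter, of which 1022 read under 1 in all 4 libraries and 12 were among the genes tested above. It stayed 0 with no trend, no table correction, quantile normalisation and, added after seeing the data, a correction by each gene's own EYFP OE ratio. Leaving out 1 library gave 0 to 2; without Fe-deficient replicate 1 it was AT2G23672 and UBQ6, without replicate 2 AT2G23672 and YCF37. The replicate block gave 15, 4 higher and 11 lower, among them FER1 (limma adjusted p 0.00688), FER3 (0.0457), FSD1 (0.0337), APX1 (0.0271), DGAT3 (0.0134) and AT3G56360 (0.008); same-numbered libraries deviated together (r = 0.568), but no label ties a replicate number to a batch. The tissue difference, 29, was 13 with a pseudocount of 0.1, 1919 with no filter, 12 with the filter in both tissues, 76 with the replicate block and 15 to 23 with 1 library left out. With 1 library left out, list medians ran from 0.12 to 0.23 for shoot Fe-deficiency genes, -0.0957 to -0.0114 for vacuolar and plastid transport, -0.38 to -0.06 for long-distance transport, -0.053 to 0.0878 for copper, -0.58 to -0.16 for salicylate, -0.35 to 0.13 for the clock, -0.46 to 0.0054 for senescence, -0.12 to 0.22 for leaf markers, -0.0345 to 0.12 for other regulators, 0.0188 to 0.14 for photosystems, -0.0309 to 0.21 for tetrapyrrole synthesis and -1.56 to -0.98 for ferritins. AT1G47400 ran from -0.31 to 0.17, reversed without full-medium replicate 1 (0.17) and without Fe-deficient replicate 2 (0.04). Of 58 named genes with overlapping groups, 45 changed sign in some alternative; the 65 other log2 changes kept theirs, except AT1G47400.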

Other observations

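Receptor-like kinases and other immune families were read after the values had been seen, with families taken by RefSeq symbol. Of 30 tested cysteine-rich receptor-like kinases (CRK), which respond to pathogens and reactive oxygen, 10 were lower and 2 higher in both Fe-deficient IMA1 OE rosette libraries, with a median log2 change of -0.08, against 10.4% lower and 11.3% higher of all tested genes. CRK36 read 8.04 and 6.87 on full medium and 3.86 and 4.06 on Fe-deficient medium, and CRK7 read 4.44 and 4.95, then 2.22 and 2.65. EYFP OE rosettes read 1.198 and 2.004 for CRK36 and 0.86 and 0.96 for CRK7, below every IMA1 OE library. Of 46 tested WRKY transcription factors 10 were lower and 4 higher, of 32 receptor-like proteins 7 and 3, and of 31 tau and phi glutathione transferases, which conjugate toxins, 5 and 2. RLP41 read 10.7 and 9.72, then 3.33 and 5.44, and GSTU24 read 7.15 and 4.77, then 3.04 and 1.48. No gene of these families passed the limma adjusted threshold. The families were picked because members stood out, so their counts are descriptions.

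A microRNA precursor was among the higher loci. The precursor of MIR164a (AT2G47585) read 0.19 in both full-medium libraries and 1.004 and 3.09 on Fe-deficient medium. The full-medium values were near the floor of the tables, and the locus passed the filter only through its Fe-deficient values.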
